A study of Mus musculus with 10 samples.

Results

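The 33 genes described here belong to the integrated stress response, its transcription factor ATF4 and the amino acid synthesis and transport genes linked to it. They were chosen as a list of gene symbols, and all 33 were found among 55401 gene identifiers in the deposited counts. Of these, 32 had enough counts to be tested among 17464 genes, and Fgf21 did not. The s.c. KPN1.1 tumors came from 10 male C57BL/6J mice with obesity, of which 5 had been given liraglutide and 5 PBS vehicle. Liraglutide is a glucagon-like peptide-1 receptor agonist, injected intraperitoneally every day at 0.2 μg per gram of body weight from the time a tumor could be felt. KPN1.1 is a mouse lung adenocarcinoma line that carries the NINJA allele for an inducible neoantigen, and both groups carried tumors of this line. The mice were 7 to 17 weeks old when the cells were injected into the flank, and tumors were harvested 19 to 22 days later. The harvest day and size of each tumor are not given in the sources used here. The study asked how the drug alters gene expression in these tumors.

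In the integrated stress response, eIF2 kinases sense amino acid shortage, unfolded protein in the endoplasmic reticulum, double-stranded RNA or heme shortage and phosphorylate the translation factor eIF2. Most translation then slows, while the Atf4 mRNA is translated better through its upstream open reading frames. ATF4 pairs with C/EBP proteins and turns on genes for amino acid synthesis and import, for redox balance and for feedback on the response, so the mRNAs of its targets are a common readout of it. Because ATF4 is controlled in large part at translation, its own mRNA is a less direct readout.

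The DNA element that ATF4 and C/EBP partners bind, the C/EBP-ATF response element, has the core TGATGNAA, which reads TTNCATCA on the other strand. It was searched on both strands in RefSeq promoters of mouse build GRCm38.p6, each 300 bases long with 250 bases before the start site and 50 from it on. A promoter was found for 28 of the 33 genes (35 promoters). Of these 28 genes, 10 (35.7%) held the core, against 3.97% of all 32851 promoters and 4.51% of the 27025 genes in the table. The matched sites are shown because this is the element through which ATF4 is known to act, each with 11 bases on either side and the core in capitals, 5′ to 3′ on the strand of the gene.
Atf3: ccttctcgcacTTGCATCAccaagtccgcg
Nupr1: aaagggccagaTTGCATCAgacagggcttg
Trib3: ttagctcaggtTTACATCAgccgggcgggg
Chac1: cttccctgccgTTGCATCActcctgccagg
Herpud1: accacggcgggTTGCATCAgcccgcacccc
Asns: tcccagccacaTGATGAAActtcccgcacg
Pycr1: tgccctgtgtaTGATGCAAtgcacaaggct
Slc1a4: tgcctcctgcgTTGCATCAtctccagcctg
Fgf21: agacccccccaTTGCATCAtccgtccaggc
Vldlr: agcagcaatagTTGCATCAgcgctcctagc

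Of the 10 sites, 8 read in the reverse form and 2 in the forward form, those of Asns and Pycr1. The first base of the core lay at −193 from the start site in Chac1, −200 in Vldlr, −139 in Fgf21, −112 in Herpud1, −110 in both Atf3 and Nupr1, −103 in Pycr1, −23 in Asns and −4 in Slc1a4, and at 15 past it in Trib3. To set a promoter with the core beside one without a match, the 250 bases upstream of Chac1 (chr2:119350992-119351241, forward strand) and of Phgdh (chr3:98339970-98340219, reverse strand) are given. Chac1 was among the genes that differed most between tumors, and Phgdh was the gene with the smallest p between treatments, as described further on.
Chac1 upstream: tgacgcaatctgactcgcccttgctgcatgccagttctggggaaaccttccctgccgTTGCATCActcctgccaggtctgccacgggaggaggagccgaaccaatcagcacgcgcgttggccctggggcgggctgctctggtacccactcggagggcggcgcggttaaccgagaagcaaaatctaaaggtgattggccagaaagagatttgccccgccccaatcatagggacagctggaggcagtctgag
Phgdh upstream: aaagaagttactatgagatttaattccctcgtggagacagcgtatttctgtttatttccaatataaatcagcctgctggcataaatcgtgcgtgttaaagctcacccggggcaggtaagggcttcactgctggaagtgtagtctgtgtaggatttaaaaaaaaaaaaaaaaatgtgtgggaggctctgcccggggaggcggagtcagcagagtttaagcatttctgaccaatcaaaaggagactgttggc

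A match to these letters is a description and does not show that the site is bound, and the absence of a match says nothing about other forms of the element or sites outside the window.

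Total counts lay between 9927942 and 14480593 per tumor, and 3 counts corresponded to 0.207 to 0.315 CPM (counts scaled to a common library size by TMM), a limit that covers counting error only. Vehicle tumor 5 stood apart from the other tumors in the listed genes, so their comparison was made on all 10 tumors and again without it. Over all tested genes it had the highest value of the 10 tumors for 15.4%, where the other tumors had 4.95% to 14.2%. RNA came from a frozen fragment of each tumor, so in these bulk samples fewer cells of a type and less RNA per cell cannot be told apart. Of the 5 epithelial markers, Krt8, Krt18, Krt19 and Cdh1 were abundant in every tumor, whereas Epcam was between 0.163 and 4.63 CPM, lowest in vehicle tumor 5. Nkx2-1, a lung lineage factor, was between 17.7 and 132 CPM. Levels below are CPM, which depend on transcript length and are compared between genes only per kilobase of exon. The length used joins all annotated exons of a gene. It can exceed that of the transcripts present, and the value per kilobase is then too low. Exons of 21 of the 33 genes overlap a gene on the other strand, and whether counting used strand is not given in the sources used here, so reads of such partners cannot be told apart (Il4i1 and Nup62 for Atf5, Mars1 and Mbd6 for Ddit3).

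Per kilobase and as the median of the 9 tumors other than vehicle tumor 5, the levels were highest for Atf4 at 66.2 CPM per kb and for the neutral amino acid transporter Slc38a2 at 49.9. Slc3a2, the heavy chain that carries several amino acid transporters to the membrane, followed with 30.9. Herpud1 with 26.6, Psat1 with 26.5 and Phgdh with 26.1 differed by little. Asns had 4.45, Chac1 1.84, Cth and Pycr1 1.35 each, and the cationic amino acid transporter Slc7a3 had 0.657, the lowest of the tested genes. The joined exon length was 11709 bases for Asns and 2826 for Phgdh, so the order of such genes is rough. Fgf21, a stress-induced hormone, was listed at 0 in vehicle tumors 1 and 2 and in liraglutide tumors 1, 2, 4 and 5, and had 0.57 CPM in vehicle tumor 5 (7 counts) against 0.21, 0.0837 and 0.0758 CPM in the other three tumors with a count. Only the value of vehicle tumor 5 was above the limit set by 3 counts.

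With all 10 tumors, none of the 32 tested genes differed between liraglutide and vehicle after adjustment. The adjusted p of edgeR's quasi-likelihood test was under 0.05 for 0 of 32 genes and for 0 of all 17464 genes (0%), among which the smallest adjusted p was 0.482. At an unadjusted p under 0.05, 1675 genes were counted overall. These were 981 lower genes, or 5.62% of those tested, and 694 higher genes, or 3.97%. Among the 32, Phgdh and Vldlr were lower at that level (6.25%) and 0 were higher, shares near those of all genes. DESeq2, the other count model run, called 102 genes (0.584%), of which 1 was in the list, Phgdh. It gave no adjusted p for 19 of the 32 genes, so these could not be called. The 0.584% is of all 17464 genes, those without an adjusted p included.

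The direction of the estimates was less even. The log2 fold change was below 0 for 30 of the 32 genes (93.8%), against 52.6% of all genes, with a median of −0.32 against −0.02. With limma-voom 23 genes were below 0 and the median was −0.12. The direction rested on vehicle tumor 5. Without it, 11 of 32 genes (34.4%) had a log2 fold change below 0, against 50.1% of 17793 genes, and the median was 0.10 against 0.00. Of the 30 genes with an estimate below 0 in all 10 tumors, 19 had one above 0 in the 9 tumors. The plot of fold changes by gene shows both estimates side by side.

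**Figure D1:**
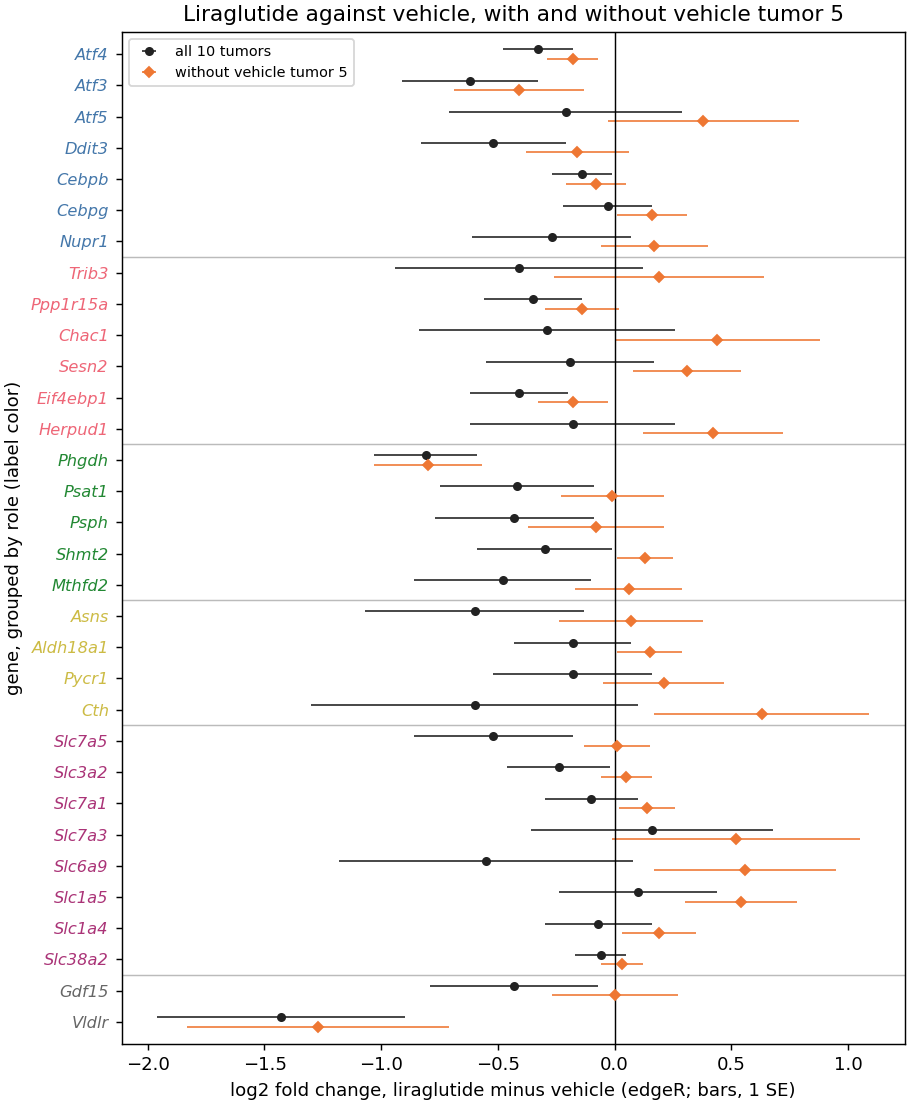
Log2 fold change of each tested gene, liraglutide minus vehicle, from edgeR on all 10 tumors (circles) and without vehicle tumor 5 (diamonds), with bars of 1 SE and genes grouped by role. With 10 tumors 30 of 32 circles lie below 0, without vehicle tumor 5 only 11 of 32 diamonds do, and Phgdh and Vldlr keep nearly the same place.

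Without vehicle tumor 5, 0 of 32 genes and 0 of 17793 genes (0%) had an adjusted p under 0.05, with 0.233 as the smallest value. At the unadjusted level 2409 genes were counted, 7.44% of all genes lower and 6.10% higher. Of the 32, Phgdh and Vldlr were again lower and Slc1a5 was higher. In no member did the values of the groups lie apart, either with 10 tumors, where 1.49% of all genes had groups that did not overlap, or with 9, where 3.55% did.

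The largest difference within the list was between vehicle tumor 5 and the other tumors. It was the highest of the 10 tumors for 30 of the 32 genes (93.8%), the exceptions being Phgdh and Vldlr, against the 15.4% of all tested genes given above. Its value exceeded the median of the other 9 tumors by more than 2-fold for 23 genes (71.9%), against 3.78% of all genes. The median log2 excess over the 32 genes was 1.27, against −0.01 over all genes, and ran from 0.31 for Cebpb to 2.63 for Cth. As this is a single tumor, its difference has no replicate check.

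Among the other 9 tumors the genes also tended to lie high or low together. As the median over the 32 genes of the log2 deviation from each gene's median, vehicle tumor 1 was at −0.48, liraglutide tumor 1 at −0.24, vehicle tumor 2 at −0.12, vehicle tumor 3 at −0.11 and liraglutide tumor 5 at −0.10. Liraglutide tumor 4 was at 0.01, liraglutide tumor 3 at 0.14, liraglutide tumor 2 at 0.16 and vehicle tumor 4 at 0.17, against 1.26 in vehicle tumor 5. Vehicle tumor 1 was the lowest tumor for 15 genes (46.9%), where it was lowest for 13.4% of all tested genes, and 2 of the 32 genes lay above their own median in it. The next tumors after vehicle tumor 5 were vehicle tumor 4, second highest for 8 genes, and liraglutide tumors 2 and 3 with 7 genes each. The vehicle tumors thus included the lowest and the highest tumor for these genes, and the 5 liraglutide tumors lay between them.

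**Figure D2:**
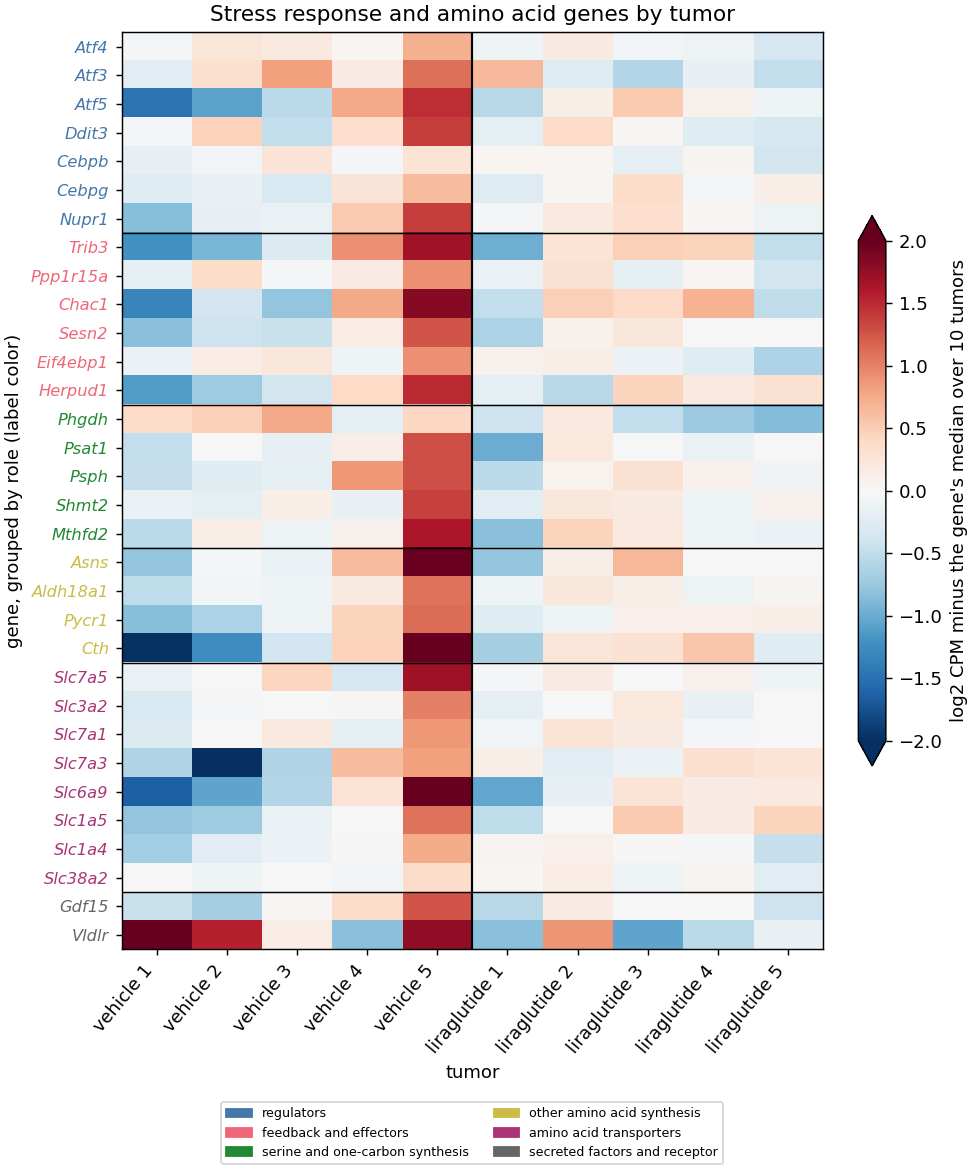
Log2 CPM of each tested gene in each tumor minus the gene's median over the 10 tumors, with genes in rows by role, tumors in columns, red above and blue below the median, and colors ending at 2 on either side. The column of vehicle tumor 5 is red in all 32 rows, vehicle tumor 1 is mostly blue, and Vldlr and Phgdh differ from the rows around them.

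The 7 regulators are transcription factors or transcriptional cofactors. Their median log2 fold change was −0.27 with 10 tumors and −0.08 with 9, and 0 of 7 had an unadjusted p under 0.05 in either. The excess in vehicle tumor 5 had a median of 1.26. Atf4, the central factor (chr15:80139372-80141745 in GRCm39), had 157, 191, 184, 166 and 264 CPM in vehicle tumors 1 to 5 and 152, 183, 155, 151 and 127 CPM in liraglutide tumors 1 to 5. Its mean was 193 ± 42.3 CPM (SD, n = 5) with vehicle and 153 ± 19.7 (n = 5) with liraglutide, and 4 of the 5 liraglutide tumors lay below every vehicle tumor, with liraglutide tumor 2 as the exception. The log2 fold change was −0.33 (SE 0.15, unadjusted p = 0.0504, adjusted p = 0.52), and −0.18 (SE 0.11, adjusted p = 0.462) without vehicle tumor 5.

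Atf3, a stress-induced repressor and activator of the same protein family, had 12.2, 17.9, 25.4, 16.1 and 30.9 CPM with vehicle and 22.5, 11.9, 9.55, 12.8 and 10.1 CPM with liraglutide. Liraglutide tumor 1 was high among its group, and the log2 fold change was −0.62 (SE 0.29, adjusted p = 0.532), and −0.41 (SE 0.28, adjusted p = 0.497) without vehicle tumor 5. Ddit3, which encodes the factor CHOP, had 12.9, 18.1, 9.24, 16.6 and 34.5 CPM with vehicle and 11.4, 17.1, 13.4, 11.1 and 10.5 CPM with liraglutide. Apart from vehicle tumor 5 the groups covered much the same range, and the log2 fold change went from −0.52 to −0.16 without that tumor.

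Atf5, which is tied to the response of mitochondria to unfolded protein, spread most among the regulators. It had 14.1, 18.6, 26.9, 66.4 and 110 CPM in vehicle tumors 1 to 5 and 26.7, 42.4, 56.5, 41.8 and 36.9 CPM in liraglutide tumors 1 to 5. The vehicle tumors thus spanned from below to above all liraglutide tumors. Nupr1, a stress-induced chromatin cofactor, lay between 35.6 and 168 CPM with vehicle and between 59.9 and 81.6 CPM with liraglutide. The C/EBP partners moved least. Cebpg lay between 82.6 and 159 CPM over the 10 tumors and Cebpb between 16.6 and 22.6 CPM in the vehicle tumors, and their excess in vehicle tumor 5 was 0.67 and 0.31 on the log2 scale.

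The 6 feedback and effector genes had a median log2 fold change of −0.32 with 10 tumors and 0.25 with 9, and 0 of 6 passed at the unadjusted level in either. Trib3, a pseudokinase that binds ATF4 and restrains it, had 9.26, 11.4, 17.7, 40.8 and 69.8 CPM with vehicle and 10.9, 26.3, 30, 29.7 and 15.3 CPM with liraglutide. Chac1, an enzyme that breaks down glutathione, had 2.42, 4.76, 3.57, 10.7 and 22.7 CPM with vehicle and 4.41, 8.9, 8.34, 10.3 and 4.39 CPM with liraglutide. Both were highest in vehicle tumors 5 and 4 and low in vehicle tumors 1 to 3, and liraglutide tumors 1 and 5 overlapped that low range while liraglutide tumors 2, 3 and 4 lay above it. For Chac1 the log2 fold change was −0.29 (SE 0.55, adjusted p = 0.875) with 10 tumors and 0.44 (SE 0.44, adjusted p = 0.637) with 9, so the sign followed the inclusion of vehicle tumor 5 and each estimate was within about its SE of 0.

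Herpud1, which helps to remove unfolded proteins from the endoplasmic reticulum, had 54.4, 72, 92, 156 and 332 CPM with vehicle and 103, 80.7, 161, 135 and 145 CPM with liraglutide. Eif4ebp1, a repressor of cap-dependent translation, had 36.4, 43.9, 46.5, 37.5 and 75.3 CPM with vehicle and 42, 42.8, 36.8, 33.5 and 25.7 CPM with liraglutide. Vehicle tumor 5 was 1.62-fold above the next tumor for Eif4ebp1 and 2.07-fold above it for Herpud1. Sesn2, which senses leucine and restrains mTORC1, lay between 8.7 and 37.8 CPM, and Ppp1r15a, the phosphatase subunit that reverses eIF2 phosphorylation, between 17.9 and 43.6 CPM. Their fold in vehicle tumor 5 over the median of the others was 2.43 and 1.94.

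**Figure D3:**
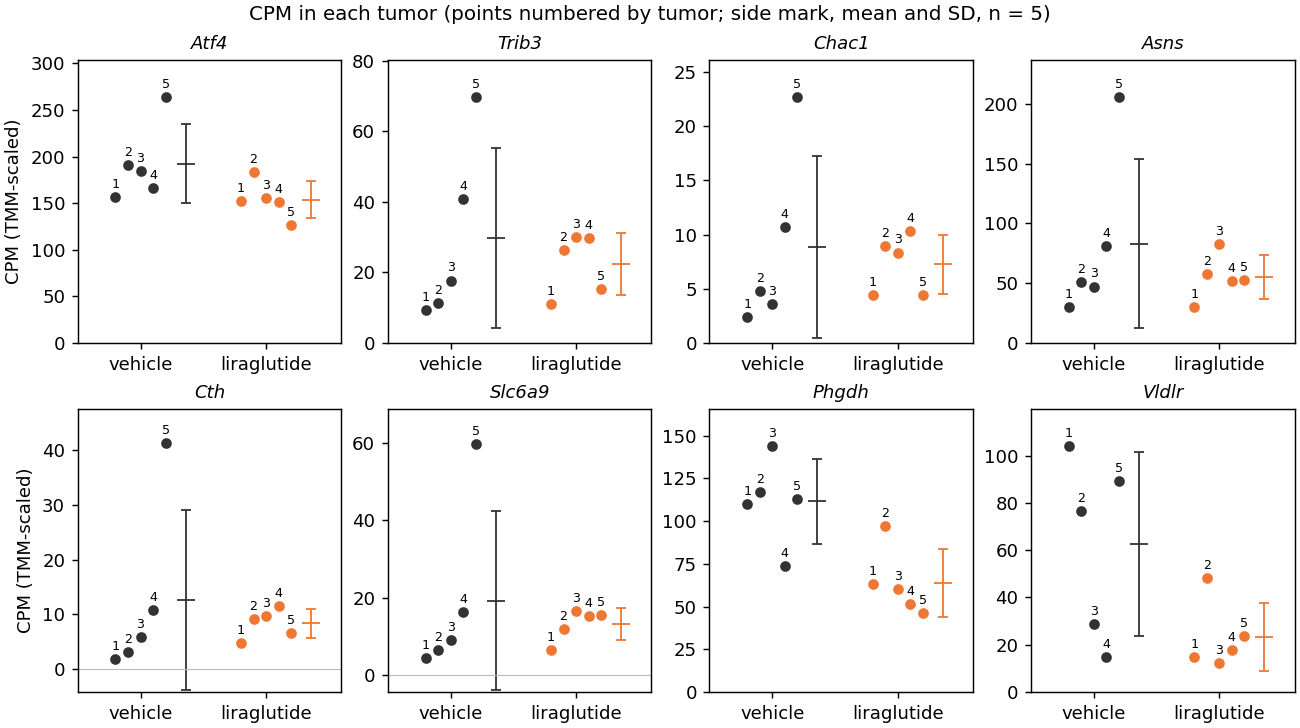
CPM of 8 of the genes in each tumor, numbered by tumor, with the mean and SD of each group of 5 beside the points on linear axes. Vehicle tumor 5 is the highest point for Atf4, Trib3, Chac1, Asns, Cth and Slc6a9, at 264 CPM for Atf4 and 206 CPM for Asns, while Phgdh is highest in vehicle tumor 3 and Vldlr in vehicle tumor 1.

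Phgdh, the enzyme of the first step of serine synthesis from glycolysis (chr3:98220484-98255047 in GRCm39), was the gene of the list with the smallest p. It had 110, 117, 144, 73.7 and 113 CPM in vehicle tumors 1 to 5 and 63.4, 97.4, 60.2, 51.4 and 46.5 CPM in liraglutide tumors 1 to 5. The groups overlapped through vehicle tumor 4 and liraglutide tumor 2, and 4 vehicle tumors lay above all 5 liraglutide tumors. The mean was 112 ± 25 CPM (SD, n = 5) with vehicle and 63.8 ± 20 CPM (n = 5) with liraglutide. Phgdh had a log2 fold change of −0.81 (SE 0.22, unadjusted p = 0.00332, adjusted p = 0.482), and −0.80 (SE 0.23, unadjusted p = 0.00642, adjusted p = 0.305) without vehicle tumor 5. With DESeq2 the adjusted p was 0.0474 with 10 tumors and 0.0599 with 9. Over 18 fits by edgeR, limma-voom and DESeq2, those that left out 1 tumor included, the adjusted p of Phgdh ranged from 0.0474 to 0.9. The lowest was that of DESeq2 and the highest that of edgeR without liraglutide tumor 5, where Atf4, Atf3 and Vldlr had 0.9 as well. The pseudogene Phgdh-ps1 had at most 1 count in a tumor.

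The enzymes that follow Phgdh were highest in vehicle tumor 5, where Phgdh was not. Psat1, the next enzyme of serine synthesis, had 111, 156, 140, 173 and 383 CPM with vehicle and 78.6, 181, 157, 143 and 158 CPM with liraglutide. Liraglutide tumor 1 was low and vehicle tumor 5 was 2.12-fold above the next tumor. The log2 fold change was −0.42 (SE 0.33, adjusted p = 0.674) with 10 tumors and −0.01 (SE 0.22, adjusted p = 0.993) with 9.

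Psph, which completes serine synthesis, lay between 7.43 and 26.6 CPM, with vehicle tumor 5 highest and vehicle tumor 4 second. Mthfd2, a mitochondrial enzyme of folate metabolism, had 25.1, 39.3, 33.6, 38.4 and 111 CPM with vehicle and 20, 48.8, 41.2, 33.8 and 33.3 CPM with liraglutide. Shmt2, which splits serine to glycine in mitochondria, had 106 CPM in vehicle tumor 5 and 35.1 to 47.8 CPM in the other 9 tumors. Shmt2 and Mthfd2 had a 2.21-fold and 2.27-fold gap between vehicle tumor 5 and the next tumor, while the remaining tumors lay close together for Shmt2. Phgdh exceeded its median of the other tumors by only 0.62 in vehicle tumor 5, where the other 4 genes of serine synthesis and mitochondrial folate metabolism exceeded theirs by 1.30 to 1.70 on the log2 scale.

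The 4 other synthesis genes make asparagine, proline and cysteine. Their median log2 fold change was −0.39 with 10 tumors and 0.18 with 9, 0 of 4 passed at the unadjusted level, and vehicle tumor 5 was highest for each. Asns, asparagine synthetase, had 30.3, 51.2, 47.2, 81.4 and 206 CPM with vehicle and 30.4, 57.6, 82.6, 52.1 and 52.3 CPM with liraglutide. Tumors numbered 1 were the lowest in both groups, and vehicle tumor 5 was 2.49-fold above liraglutide tumor 3, the next. Asns had a log2 fold change of −0.60 (SE 0.47, adjusted p = 0.676) with 10 tumors and 0.07 (SE 0.31, adjusted p = 0.921) with 9.

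Cth, which makes cysteine from cystathionine, had the widest fold range of the list. It had 1.87, 3.14, 5.88, 10.8 and 41.3 CPM with vehicle and 4.84, 9.22, 9.63, 11.5 and 6.55 CPM with liraglutide. The value of vehicle tumor 5 was 6.3-fold the median of the others and 3.58-fold the next tumor, and vehicle tumors 1 and 2 were below every liraglutide tumor. The log2 fold change was −0.60 (SE 0.70) with 10 tumors and 0.63 (SE 0.46) with 9, neither beyond the spread between tumors. Aldh18a1 and Pycr1, the enzymes of proline synthesis, lay between 64.2 and 194 CPM and between 3.94 and 15.7 CPM, lowest in vehicle tumor 1 and highest in vehicle tumor 5.

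The 8 amino acid transporters had a median log2 fold change of −0.09 with 10 tumors and 0.17 with 9, and their median excess in vehicle tumor 5 was 0.97. Slc7a5, the large neutral amino acid transporter that works with Slc3a2, had 59.5, 65.5, 87.9, 51.6 and 210 CPM with vehicle and 63.9, 72.9, 64.5, 68.7 and 61.3 CPM with liraglutide. The 5 liraglutide tumors lay within 61.3 to 72.9 CPM, so nearly all of the difference between the group means came from vehicle tumor 5, and the log2 fold change went from −0.52 (SE 0.34) to 0.01 (SE 0.14). Slc3a2 had 290 CPM in vehicle tumor 5 and 118 to 168 CPM in the other 9 tumors.

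Slc1a5, a transporter of glutamine and other neutral amino acids (chr7:16515265-16532731 in GRCm39), had 36.4, 38.5, 57.1, 63.6 and 134 CPM with vehicle and 44.2, 62.5, 90.2, 71.1 and 86.2 CPM with liraglutide. Without vehicle tumor 5, 3 of the 5 liraglutide tumors were above the 4 vehicle tumors, and the log2 fold change was 0.54 (SE 0.24, unadjusted p = 0.0453, adjusted p = 0.36), against 0.10 (SE 0.34, adjusted p = 0.931) with 10. Slc6a9, a glycine transporter, had 4.21, 6.39, 8.92, 16.3 and 59.9 CPM with vehicle and 6.48, 11.9, 16.4, 15.2 and 15.5 CPM with liraglutide. Its gap between vehicle tumor 5 and the next tumor was 3.66-fold, the widest of the list.

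Slc38a2, a sodium-coupled transporter of small neutral amino acids, lay between 417 and 540 CPM in the 9 tumors and had 625 CPM in vehicle tumor 5. Slc1a4, a carrier of serine and alanine, lay between 31.5 and 54.5 CPM in the 9 tumors and had 84.7 CPM in vehicle tumor 5. Slc7a1 and Slc7a3 both carry arginine and lysine. Slc7a1 had 182 CPM in vehicle tumor 5 against 83.4 to 121 CPM in the others, and Slc7a3 had 6.19 CPM against 0.304 to 5.44 CPM, the lowest in vehicle tumor 2.

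Gdf15, a secreted cytokine that lowers appetite through a hindbrain receptor, had 2.63, 2.23, 3.67, 4.69 and 8.88 CPM with vehicle and 2.42, 4.08, 3.64, 3.59 and 2.68 CPM with liraglutide. Vehicle tumor 5 was highest, and the other 9 tumors of both groups covered much the same range. Its log2 fold change was −0.43 (SE 0.36, adjusted p = 0.693) with 10 tumors and close to 0 without vehicle tumor 5 (SE 0.27, adjusted p = 0.995).

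Vldlr, a receptor that takes up lipoprotein (chr19:27193862-27231631 in GRCm39), had the largest log2 fold change of the list. It had 104, 76.6, 28.9, 14.6 and 89.2 CPM in vehicle tumors 1 to 5 and 14.6, 48, 12.4, 17.9 and 23.5 CPM in liraglutide tumors 1 to 5. Vehicle tumors 1, 2 and 5 were above all liraglutide tumors, and vehicle tumors 3 and 4 were within their range. For Vldlr the log2 fold change was −1.43 (SE 0.53, unadjusted p = 0.0204, adjusted p = 0.489), and −1.27 (SE 0.56, unadjusted p = 0.0463, adjusted p = 0.362) without vehicle tumor 5. Vehicle tumor 1, the highest for Vldlr, was the lowest tumor for 15 of the other genes.

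The sensors and the translation factor upstream of ATF4 were compared next, with further lists of genes around the response. Of 17 eIF2 kinases, sensors, eIF2 subunits and eIF2B subunits, 3 were lower and 0 higher at the unadjusted level with 10 tumors, where 5.62% of all genes were lower, with 0 past adjustment and a median log2 fold change of −0.01. The 3 were the eIF2 subunits Eif2s2, at −0.50 (SE 0.14, adjusted p = 0.482), Eif2s3x, at −0.29 (SE 0.09, adjusted p = 0.482), and Eif2s1, at −0.43 (SE 0.19, adjusted p = 0.515). The groups did not overlap for Eif2s3x, as for 1.49% of all genes. In vehicle tumor 5 the median excess of these 17 genes was 0.08, with 5 genes highest there.

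Of 16 further genes linked to ATF4, 4 were lower and 0 higher at the unadjusted level, where 5.62% of all genes were lower and 3.97% higher, and 0 passed adjustment, with a median log2 fold change of −0.43 with 10 tumors and −0.06 with 9. Slc7a11, the cystine importer, had 188, 142, 180, 187 and 213 CPM with vehicle and 76.7, 167, 105, 124 and 86 CPM with liraglutide. Liraglutide tumor 2 alone reached the vehicle range. Slc7a11 had a log2 fold change of −0.70 (SE 0.20, unadjusted p = 0.0048, adjusted p = 0.482), and −0.64 (adjusted p = 0.311) without vehicle tumor 5, so that Slc7a11, like Phgdh, was nearly as low without that tumor. Mthfd1l, a mitochondrial folate enzyme, was at −0.52 (SE 0.15, adjusted p = 0.482) and Lonp1, a mitochondrial protease, at −0.53 (SE 0.18, adjusted p = 0.482).

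In vehicle tumor 5 the median excess of these 16 genes was 0.78, 12 of them were highest there, and the largest excess was 2.78. That was Aldh1l2, a mitochondrial folate enzyme chosen here after its values were seen, with 194 CPM in vehicle tumor 5 and 7.32 to 44.8 CPM in the other 9 tumors. The tumors next to it were vehicle tumor 4 and liraglutide tumor 2, as for many of the 32 genes.

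Of 19 genes of the ATF6 and XBP1 arms, which raise chaperones of the endoplasmic reticulum, 1 was lower and 0 higher at the unadjusted level, a share near the 5.62% of all genes, with a median of −0.09 that turned to 0.11 without vehicle tumor 5. Hsp90b1, a chaperone, was the lower gene, at −0.42 (SE 0.11, adjusted p = 0.482), and 17 of the 19 genes were highest in vehicle tumor 5, though with a median excess of 0.53, below the 1.27 of the stress response list. Of 8 mitochondrial chaperones and proteases, 3 were lower and 0 higher, against the same 5.62% and 3.97%, with a treatment median of −0.24 (−0.11 without vehicle tumor 5) and a median excess of 0.33 in vehicle tumor 5. These were Lonp1, Hspe1 at −0.37 (SE 0.13, adjusted p = 0.482) and Hspd1 at −0.27 (SE 0.11, adjusted p = 0.503).

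Of 16 tested genes among 22 other amino acid transporters, 3 were higher and 1 lower at the unadjusted level, where 3.97% of all genes were higher and 5.62% lower, and their median was 0.17 on the log2 scale. Slc43a2, a transporter of large neutral amino acids, was at 0.80 (SE 0.22, adjusted p = 0.482), Slc1a2, a glutamate transporter at 3.39 CPM or less in group mean, was at 1.34 (SE 0.38, adjusted p = 0.482), and the lower gene was Slc7a11. Their median excess in vehicle tumor 5 was 0.07. Of 19 tested genes among 20 other enzymes of amino acid and folate metabolism, 2 were lower and 0 higher, against 5.62% and 3.97% of all genes, among them Mthfd1l. Their median was −0.00 for treatment and 0.33 for vehicle tumor 5.

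Of 12 hypoxia genes, 7 were lower and 0 higher at the unadjusted level with 10 tumors, where 5.62% of all genes were lower, and all 12 estimates were below 0 with 10 tumors, with a median of −0.68. Without vehicle tumor 5 the count was again 7, against 7.44% of all genes, with Pdk1 in place of Ndrg1, a pair named after their values were seen. The smallest p was that of Higd1a, a mitochondrial protein, at −0.89 (SE 0.18, adjusted p = 0.482), followed by the glycolytic enzyme Pgk1 at −0.62 (SE 0.15) and the mitophagy receptor Bnip3 at −0.90 (SE 0.26). For Higd1a and Pgk1 the groups did not overlap either. The median excess of the hypoxia genes in vehicle tumor 5 was 0.16 with 2 genes highest there, against 1.27 and 30 genes in the stress response list. Single genes of other lists exceeded the 2.63 of Cth, the largest in the stress response list. Among them were Car9 of the hypoxia genes (2.71) and Bcat1 of the other enzymes (2.82), both named after their values were seen. The lists share genes (Slc7a11, Lonp1, Mthfd1l, Gpt2 and Ddit4 each stand in several), and 0 genes of any list had an edgeR adjusted p under 0.05. With DESeq2, which called 0.584% of all genes, 5 genes of these lists had one: Higd1a (0.00761), Pgk1 (0.0294), Slc43a2 (0.0449), Hsp90b1 (0.0479) and Bnip3 (0.0486). Many genes of the lists, such as Slc1a2, were given no adjusted p by DESeq2 and could not be called.

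**Figure D4:**
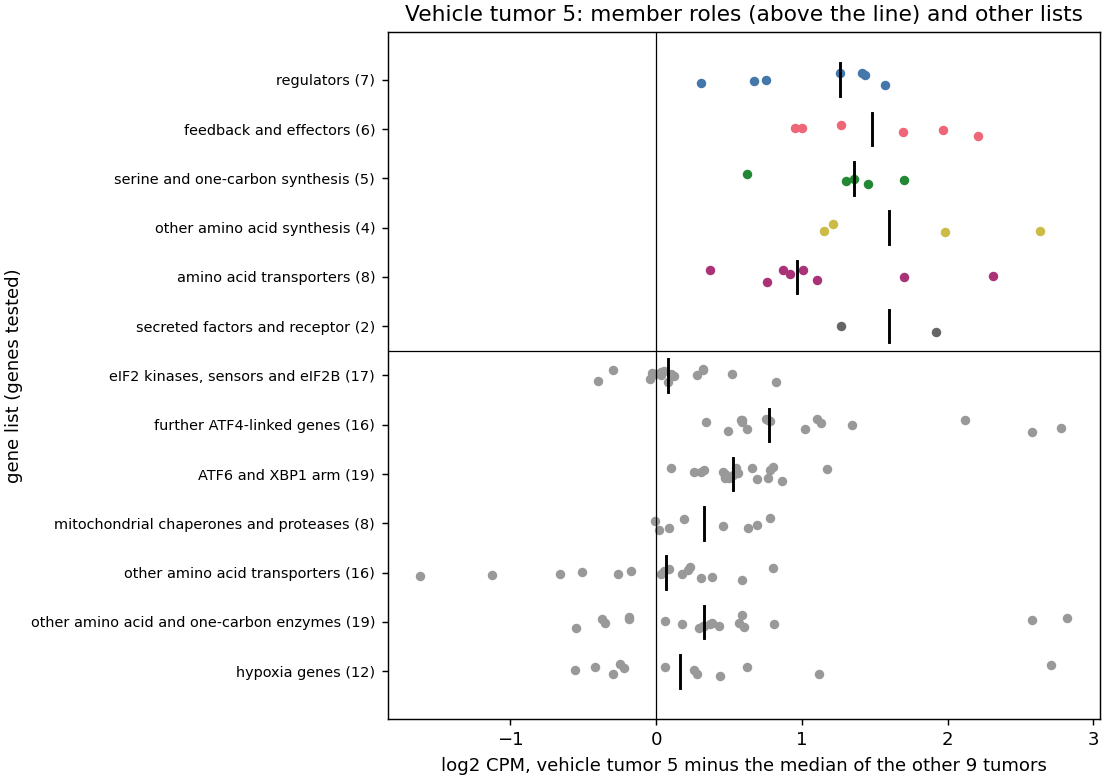
Log2 CPM in vehicle tumor 5 minus the median of the other 9 tumors, with a point for each tested gene and a bar at the median of each list, for the roles within the 32 genes (above the line) and the other lists (below it). The role medians lie between 0.97 and 1.59, and those of the other lists between 0.07 and 0.78.

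Of the cell type marker lists, the epithelial list stood furthest outside the range of the other tumors in vehicle tumor 5. The summed level of the 5 epithelial markers was 9649 CPM there, 4599 to 7323 CPM in vehicle tumors 1 to 4 and 4674 to 6919 CPM in the liraglutide tumors, with 3 of the 5 markers highest in vehicle tumor 5. Krt18 was highest in vehicle tumor 3. Epcam, which adds little to the sum, went the other way and was lowest in vehicle tumor 5 (−3.38 on the log2 scale). The 5 fibroblast markers summed to 913 CPM in vehicle tumor 5, 846 to 2029 CPM in the other vehicle tumors and 1155 to 2249 CPM with liraglutide, so that vehicle tumor 4 was lower still. The 5 macrophage markers summed to 338 CPM, 455 to 890 CPM and 340 to 548 CPM in the same order, and of these Mrc1 had the largest deficit in vehicle tumor 5 (−0.64 on the log2 scale), while Cd68 (0.12) and C1qa (0.04) did not lie below the others.

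The remaining marker sums in vehicle tumor 5 were 668 CPM for 5 lung markers (others 123 to 654), 91.9 for 7 leukocyte markers (39.2 to 97.6), 5.38 for 5 neutrophil markers (5.02 to 12.5) and 92.9 for 5 endothelial markers (90 to 145). Skeletal muscle markers summed to 88.1 CPM (29.6 to 280), keratinocyte markers to 14 (6.65 to 200) and adipocyte markers to 28.3 (15.3 to 83.1). By treatment, 3 of the 4 tested keratinocyte markers were higher with liraglutide at the unadjusted level, where 3.97% of all genes were, with a median log2 fold change of 2.96 over the 4. Krt14 was at 2.36 (SE 0.83, adjusted p = 0.482), and the sums were 8.36 to 17.6 CPM in vehicle tumors 1 to 4 and 6.65 to 200 CPM in the liraglutide tumors, which include the lowest tumor. Of the other lists 1 of 5 lung markers (Nkx2-1, at 0.99, SE 0.45, adjusted p = 0.52) and 1 of 5 fibroblast markers (Pdgfrb, at 0.36, SE 0.14, adjusted p = 0.503) were higher, 0 markers were lower, and 0 passed adjustment. Without vehicle tumor 5, 2 keratinocyte, 2 lung, 2 leukocyte and 1 epithelial marker were higher, where 6.10% of all genes were, and 1 macrophage marker was lower, where 7.44% were. The leukocyte markers were Cd3e (1.62) and Cd8a (1.55), the epithelial marker was Cdh1 (0.88) and the macrophage marker was Mrc1 (−0.94), in log2 fold change, and 0 passed adjustment. Of all markers only Lor, a keratinocyte gene, was at 0 in every tumor. The part of these differences in the levels of the 32 genes or of the hypoxia genes was not tested.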

How the data were processed

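RNA-Seq was done on 10 s.c. KPN1.1 tumors from different mice, grouped by the sample titles. The authors depleted ribosomal RNA, mapped read pairs with TopHat and Bowtie, used featureCounts for quantification, and deposited raw counts per gene without normalization after removing samples at quality assessment. The methods name GRCm39, whereas the submitters' processing notes name mm10 and GRCh38. Of 55401 identifiers, 51731 (93.38%) matched GENCODE M39 (GRCm39), 35 with the same version, so positions may differ in detail from those used for counting. The symbol Ddit3 has 2 identifiers, and the one with counts was used.

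Counts were filtered (filterByExpr), scaled by TMM and tested with edgeR 4.0.16 (quasi-likelihood F test, treatment as the single factor, Benjamini-Hochberg over all tested genes) in R 4.3.3, with 10 tumors (17464 genes) and without vehicle tumor 5 (17793 genes). CPM are counts relative to the TMM-scaled library, and log2 CPM used a prior count of 2. The tumors are replicates of their group, so p-values set the difference between groups against the spread between tumors. Total counts of 9927942 to 14480593 set the smallest CPM shown by 3 counts at 0.207 to 0.315. The genes, lists, motif and tests were chosen with earlier results of these data known. Values in every tumor are given for Atf4, Atf3, Ddit3, Chac1, Trib3, Asns, Psat1, Phgdh, Gdf15 and Slc7a11, and in each role for the genes with the smallest p in either fit and the largest excess in vehicle tumor 5. Of each other list up to 3 genes with the smallest p are named. Alternatives were DESeq2 1.42.0, its size factors in edgeR, limma-voom (limma 3.58.1), library size alone, other filters, the tumor number as a block and each tumor left out. Promoters came from RefSeq (GRCm38.p6), and no position was converted between builds. The line's further alleles and the values of 1 listed gene are not reported here.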

Additional observations from a re-analysis of the deposited data

Results flagged for a closer look

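In each group of 5 tumors, the gap between the most extreme tumor and its neighbor was set against the range of the group on the log2 CPM scale, with 0.71 as the limit for 5 values. Of 64 sets of values (32 genes in each group), 6 lay beyond it, and chance alone gives about 1 in 20 for independent sets. These sets are not independent, as the genes share the same tumors, and the share over all genes is not given here. The count is therefore a description only. Among vehicle tumors, tumor 5 was far above the others for Slc38a2 (a ratio of 0.793), Shmt2 (0.786) and Slc3a2 (0.745). Among liraglutide tumors, tumor 1 was far below the others for Sesn2 (0.728) and Psat1 (0.72), and tumor 5 was far below them for Slc1a4 (0.774). For the other 27 genes that were highest in vehicle tumor 5, its gap to the next vehicle tumor did not pass this limit.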

How the results depend on the processing

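The direction of the list rested on vehicle tumor 5. Leaving out 1 tumor at a time, the genes with a log2 fold change below 0 numbered 11 to 32 and the median −0.45 to 0.10. Those lower at an unadjusted p under 0.05 numbered 2 to 4 (4 without vehicle tumor 1), and those higher 0 to 1 (1 without vehicle tumor 5). Without vehicle tumor 5 the estimates of 19 genes turned positive. The ranges over the tumors left out were −0.44 to 0.38 for Atf5, −0.11 to 0.16 for Cebpg, −0.46 to 0.17 for Nupr1, −0.64 to 0.19 for Trib3, −0.53 to 0.44 for Chac1, −0.37 to 0.31 for Sesn2 and −0.39 to 0.42 for Herpud1. They were −0.41 to 0.13 for Shmt2, −0.65 to 0.06 for Mthfd2, −0.81 to 0.07 for Asns, −0.32 to 0.15 for Aldh18a1, −0.36 to 0.21 for Pycr1 and −0.88 to 0.63 for Cth. For the transporters they were −0.67 to 0.01 for Slc7a5, −0.35 to 0.05 for Slc3a2, −0.19 to 0.14 for Slc7a1, −0.13 to 0.52 for Slc7a3, −0.81 to 0.56 for Slc6a9, −0.05 to 0.54 for Slc1a5, −0.21 to 0.19 for Slc1a4 and −0.10 to 0.03 for Slc38a2. Estimates also changed sign without vehicle tumor 1 for Slc1a5, without vehicle tumor 2 for Slc7a3 and Slc1a5, without vehicle tumor 4 or liraglutide tumor 1 for Cebpg and without liraglutide tumor 5 for Slc1a4. Among the 9 tumors, leaving out liraglutide tumor 5 left 1 lower and 0 higher gene.

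DESeq2 called 1 gene of the list, Phgdh, at a log2 fold change of −0.80, and gave no adjusted p for 19 of the 32. Testing all genes with at least 1 count gave 5 lower genes at the unadjusted level, where the filtered table gave 2. limma-voom moved the median of the list to −0.12, with 23 genes below 0, and gave estimates above 0 for Atf5 (0.19), Cebpg (0.01), Chac1 (0.10), Herpud1 (0.10), Pycr1 (0.01), Cth (0.21) and Slc6a9 (0.07), and library size alone for Cebpg (0.03). Library size alone left 1 lower gene among the 9 tumors. Without vehicle tumor 5, a higher gene appeared at the unadjusted level among the eIF2 genes (1), the further ATF4-linked genes (1), the ATF6 and XBP1 genes (1) and the other enzymes (2), and the other transporters had 4 where they had 3 with 10 tumors, while 6.10% of all genes were higher. Beyond the named reversals the cause was not tested.

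Tumors of the same number came from different mice, and after the group means were subtracted the correlations of same-numbered tumors were 0.354, 0.565, −0.0753, 0.0681 and 0.389 for numbers 1 to 5, so the numbers were not taken to pair them. With the number as a replicate block in edgeR, 0 genes of the list had an adjusted p under 0.05, the estimates of Atf5 (0.19), Chac1 (0.13), Herpud1 (0.10), Cth (0.22) and Slc6a9 (0.05) were above 0, and among the 9 tumors 1 gene was lower and 4 were higher at the unadjusted level. The shares of all genes at that level are not given here for this fit or for most other alternatives, so such counts are not read as a result about the list. The block moved the median log2 fold change of the list from −0.32 to −0.11, with 24 genes below 0. Direction and call stayed as reported in 533 of 572 alternatives for single genes.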
